A study of Mus musculus with 18 samples.

Results

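The TAM receptors Axl, Mertk and Tyro3 and the secreted bridging ligands Gas6, Pros1 and Mfge8 are 6 genes, taken by symbol from a count table of 54532 genes. All 6 symbols matched a single Ensembl gene each. They were followed in microglia and in the other retinal cells of rd1 mice on the FVB background, in which a Pde6b mutation leads to photoreceptor death. All mice were at postnatal day 30 and had received a subretinal injection of an AAV8 vector for green fluorescent protein (AAV8-GFP). In the TGFB1 groups a second vector for transforming growth factor beta 1 (AAV8-TGFB1) was given with it. Cells were sorted by antibody staining after papain dissociation, and polyA RNA was sequenced with a modified Smart-Seq2 protocol. Microglia gave 7 TGFB1 and 7 GFP libraries, and non-microglia 2 TGFB1 and 2 GFP libraries. The labels used here name neither the sorting antibody nor the promoter of the vectors, and they do not say whether libraries came from separate animals.

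TAM receptors are receptor tyrosine kinases that let phagocytes recognise and engulf dying cells. Their ligands Gas6 and protein S (Pros1) are carboxylated in a vitamin K dependent step, which allows them to bind phosphatidylserine on a dying cell and to bridge it to the receptor. Gas6 binds all of the TAM receptors, whereas protein S acts on Tyro3 and Mertk. Mfge8 also binds phosphatidylserine but bridges it to alpha v integrins. In the eye, Mertk is best known for the daily uptake of photoreceptor outer segments by the pigment epithelium, and its loss causes retinal degeneration in rats and mice. In microglia, Axl is known as a gene of the disease-associated state.

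The promoters of Axl and Gas6 are shown because these were the members called between treatments in microglia, and because TGF-beta acts on transcription through SMAD proteins. Each is a window of 250 bases before to 50 after the RefSeq start on GRCm38.p6, given 5′ to 3′ on the strand of the gene, with CAGAC or its reverse complement GTCTG, the letters of a SMAD-binding element, in capitals. The Axl window is chr7:25788684-25788983 on the minus strand, and the Gas6 window is chr8:13494486-13494785 on the minus strand.
Axl: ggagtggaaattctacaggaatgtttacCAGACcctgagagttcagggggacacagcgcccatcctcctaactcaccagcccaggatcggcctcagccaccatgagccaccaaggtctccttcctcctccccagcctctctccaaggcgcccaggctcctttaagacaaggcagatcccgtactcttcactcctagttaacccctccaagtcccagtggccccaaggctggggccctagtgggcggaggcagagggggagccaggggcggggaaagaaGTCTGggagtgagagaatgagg
Gas6: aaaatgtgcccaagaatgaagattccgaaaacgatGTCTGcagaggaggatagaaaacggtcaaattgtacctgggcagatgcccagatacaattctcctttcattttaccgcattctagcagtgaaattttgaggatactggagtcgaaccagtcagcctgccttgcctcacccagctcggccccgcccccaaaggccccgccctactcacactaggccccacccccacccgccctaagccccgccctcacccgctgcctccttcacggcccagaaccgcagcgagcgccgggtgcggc

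The Axl window held CAGAC or GTCTG 2 times and the Gas6 window 1 time, whereas the windows of Mertk, Tyro3, Pros1 and Mfge8 held 0. These letters are frequent, and 49.6% of 32851 RefSeq promoter windows of the same length held at least 1 of them. The GC box GGGCGG, searched on both strands, occurred 2 times for Axl, 4 times for each of Mertk, Gas6 and Mfge8, 5 times for Pros1 and 6 times for Tyro3, and in 35.7% of all windows. The AP-1 motif TGAGTCA, searched in the same way, occurred in none of the 6 windows and in 5.2% of all. In the Axl and Gas6 windows no match of a motif overlapped a match of another. The match is a description of letters and says nothing of binding.

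Library totals ran from 1582451 to 3064027 counts, with a count in 19947 to 26333 genes, and a floor of 3 counts in a library corresponded to between 1.01 and 2.04 CPM. CPM are counts divided by the scaled library size and multiplied by 1e+06. Tgfb1, the gene that the vector carries, had 462 and 402 counts in the non-microglia TGFB1 libraries, against 0 and 0 in the non-microglia GFP libraries. In microglia it had 17 to 59 counts in TGFB1 libraries and 18 to 40 in GFP libraries (log2 fold change 0.20, SE 0.224, edgeR adjusted p = 0.931). Summed over 8 microglia marker genes, levels were 37385 ± 1348 CPM in TGFB1 microglia and 36383 ± 1470 CPM in GFP microglia (SD, n = 7 each). In non-microglia the same sum was 74.4 and 80.3 CPM in TGFB1 libraries, against 84.2 and 90.8 CPM in GFP libraries, and Fcrls was at 0 in all of them. The 11 Mueller glia markers, which made up the highest marker sum in non-microglia, reached 305 to 899 CPM in TGFB1 microglia and 391 to 1070 CPM in GFP microglia. Of the 10 Mueller markers tested in microglia 0 were called, and 0 had an unadjusted p under 0.05; their median log2 fold change was -0.77. In replicates 2, 7 and 8 of both microglia groups, 6 libraries in all, the Xist count exceeded the summed count of the Y chromosome genes Ddx3y, Eif2s3y, Kdm5d and Uty. In the other 12 libraries it did not. By this rule libraries are named below as having Xist counts or Y counts, whether or not they held some counts of the other kind.

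Between treatments in microglia, Axl rose and Gas6 fell in TGFB1 retinas, while Mertk, Pros1 and Mfge8 did not pass the test and Tyro3 had too few counts to be tested. A receptor and its ligand thus moved in opposite directions. Genes were called with the edgeR quasi-likelihood test at a Benjamini-Hochberg adjusted p under 0.05 over all genes tested. Of all 10970 genes tested, 0.310% were called, 0.237% higher and 0.0729% lower, against 2 of the 5 members tested. The members were chosen with earlier results of these data known, and nothing is read from that share. The median size of the log2 fold change over all genes was 0.109. The ranges of the TGFB1 and GFP libraries overlapped for all 6 members, and did not overlap for 0.228% of all genes, 0.182% higher and 0.0456% lower.

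Axl (ENSMUSG00000002602, GRCm38 chromosome 7, 25757273 to 25788705, minus strand) encodes the receptor for which Gas6 is the ligand. Positions of all members are from GENCODE M21 on GRCm38, and no member but Gas6 shares exon bases with another gene. Its level in TGFB1 microglia was lowest at 309.9 CPM, with a median of 368.9 and a highest value of 432.0 CPM, against a lowest of 228, a median of 264 and a highest of 332 CPM in GFP microglia. In 5 of 7 TGFB1 libraries Axl lay above every GFP library, and in 7 of 7 it lay above the GFP mean. The TGFB1 libraries that overlapped the GFP range were replicates 5 and 6, and the highest GFP library was replicate 6. The means were 369.9 ± 49.1 CPM in TGFB1 microglia and 277 ± 36.3 CPM in GFP microglia (SD, n = 7 each), a log2 fold change of 0.42 (SE 0.0874, edgeR adjusted p = 0.0335). A two-sided exact permutation test of this single gene over the 14 libraries gave p = 0.00291, unadjusted and from 6 such tests, where 0.000583 is the smallest p that 7 against 7 libraries allow.

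The Axl call was close to the threshold in this fit, which does not pair libraries by replicate number (a fit with a replicate block is given below). It ended in 10 of the 14 fits that each left out 1 library, with a largest edgeR adjusted p of 0.112 without GFP replicate 3, while the log2 fold change stayed between 0.37 and 0.47. The call was kept without TGFB1 replicate 5, TGFB1 replicate 6, GFP replicate 6 or GFP replicate 8. With the Mueller marker level as a covariate the log2 fold change was 0.34 (edgeR adjusted p = 0.129). It was 0.56 in the 6 libraries with Xist counts (edgeR adjusted p = 0.0134) and 0.30 in the 8 others (edgeR adjusted p = 0.654). In replicates 2 to 4 it was 0.60 (edgeR adjusted p = 0.0389) and in replicates 5 to 8 it was 0.30 (edgeR adjusted p = 0.901).

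Gas6 (ENSMUSG00000031451, GRCm38 chromosome 8, 13465374 to 13494490, minus strand) encodes the growth arrest specific ligand of the TAM receptors. It was lowest at 100.04 CPM in TGFB1 microglia, with a median of 127 and a highest value of 153 CPM, against a lowest of 149, a median of 188 and a highest of 229 CPM in GFP microglia. All TGFB1 libraries but replicate 5 lay below every GFP library, and all GFP libraries but replicate 8 lay above every TGFB1 library. Means were 128 ± 17.9 CPM in TGFB1 microglia and 193 ± 27.7 CPM in GFP microglia (SD, n = 7 each), a log2 fold change of -0.59 (SE 0.0955, edgeR adjusted p = 0.00599). The two-sided exact permutation test gave an unadjusted p of 0.00117. Of the exon bases of Gas6, 34 or 1.33% overlap Tmem255b on the other strand, and whether the counting used strand is not given in the labels.

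The Gas6 call was kept in all 14 fits that left out 1 library, with log2 fold changes between -0.64 and -0.54 and a largest edgeR adjusted p of 0.0195. It was also kept with the Mueller marker covariate (log2 fold change -0.57, edgeR adjusted p = 0.0281). In replicates 2 to 4 the value was -0.77 (edgeR adjusted p = 0.0116), and in replicates 5 to 8 it was -0.45 and not called (edgeR adjusted p = 0.686). In the 6 libraries with Xist counts it was -0.50 and not called (edgeR adjusted p = 0.144), and in the 8 others it was -0.64 (edgeR adjusted p = 0.0398).

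**Figure D1:**
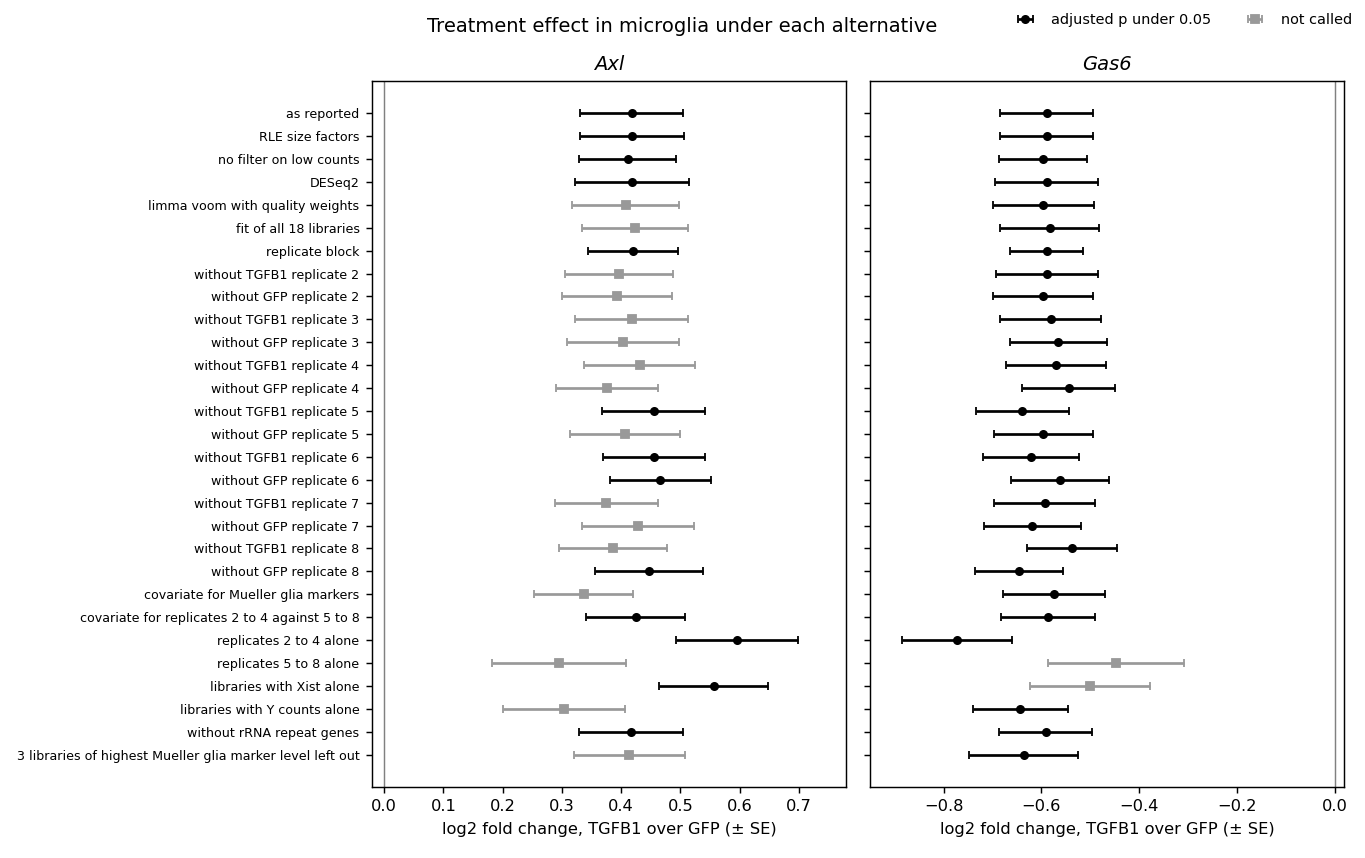
Log2 fold change of TGFB1 over GFP in microglia, with its standard error, for Axl (left) and Gas6 (right) as reported and under each other setting. Black circles mark an adjusted p under 0.05 and grey squares one above it: all Axl values are above 0 and all Gas6 values below 0, Axl lost its call without any of 10 single libraries and in 6 other settings, and Gas6 lost it in replicates 5 to 8 alone and in the libraries with Xist alone.

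**Figure D2:**
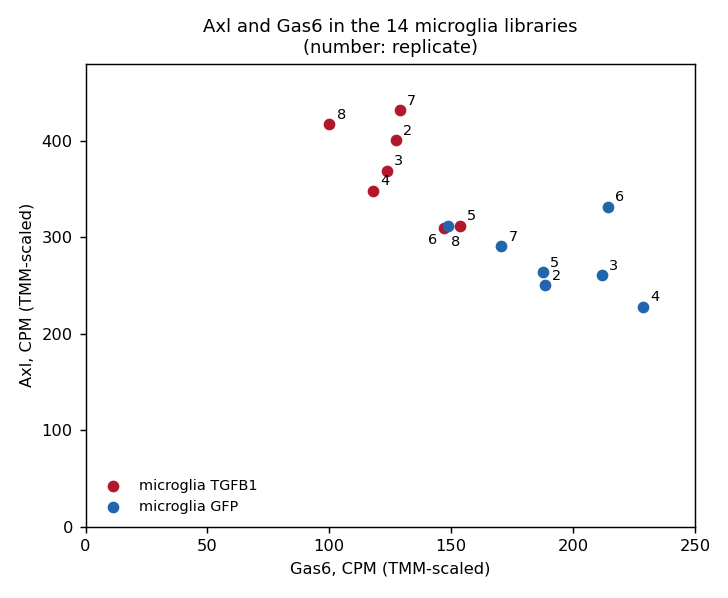
Levels of Gas6 (x axis) and Axl (y axis) in each of the 14 microglia libraries, both in TMM-scaled CPM, with the replicate number beside each point. The TGFB1 libraries lie above and to the left of most GFP libraries, and TGFB1 replicates 5 and 6 lie beside GFP replicate 8.

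Set per kilobase of exon, so that genes can be compared, the ratio of Axl to Gas6 was 1.5003 ± 0.372 in TGFB1 microglia, from 1.03 to 2.11, and 0.746 ± 0.179 in GFP microglia, from 0.505 to 1.06 (SD, n = 7 each). Every TGFB1 library thus had more Axl than Gas6 per length, and every GFP library except replicate 8 had less. Axl made up 40.2 ± 3.17% of the TAM receptor transcripts per length in TGFB1 microglia and 33.0 ± 4.21% in GFP microglia. Mertk made up nearly all of the rest, 59.8 ± 3.15% in TGFB1 microglia and 66.9 ± 4.17% in GFP microglia. Gas6 made up 22.8 ± 2.26% of Gas6 and Pros1 together in TGFB1 microglia, against 31.3 ± 4.004% in GFP microglia. These ratios rest on the same counts as the tests above and carry no test of their own.

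Mertk (ENSMUSG00000014361, chromosome 2, 128698956 to 128802894, plus strand), the receptor for uptake of dying cells and outer segments, was the most abundant TAM receptor of microglia in both treatments. It ran from 422 to 514 CPM with a median of 478 in TGFB1 microglia, and from 403 to 558 CPM with a median of 499 in GFP microglia. The ranges overlapped almost entirely, and the log2 fold change of -0.04 (SE 0.0707) did not pass (edgeR adjusted p = 0.957, unadjusted exact permutation p = 0.646).

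Pros1 (ENSMUSG00000022912, chromosome 16, 62854307 to 62929346, plus strand), which encodes protein S, a ligand of Mertk and Tyro3, was higher per length than any other member in microglia. It ran from 649 to 766 CPM with a median of 703 in TGFB1 microglia, and from 592 to 802 CPM with a median of 666 in GFP microglia. The GFP range enclosed the TGFB1 range. The log2 fold change was 0.03 (SE 0.0614, edgeR adjusted p = 0.962, unadjusted exact permutation p = 0.538).

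Mfge8 (ENSMUSG00000030605, chromosome 7, 79133768 to 79149060, minus strand), the integrin-directed bridging protein, was low in microglia. It ran from 23.9 to 47.0 CPM with a median of 34.3 in TGFB1 microglia, and from 27.0 to 59.5 CPM with a median of 34.4 in GFP microglia. The log2 fold change of -0.22 (SE 0.193) did not pass (edgeR adjusted p = 0.913, unadjusted exact permutation p = 0.371). Scaling the non-microglia level by the Mueller marker share of each microglia library, 1.55 to 4.01% in TGFB1 and 1.69 to 4.61% in GFP libraries, gave a mean of 36.8 CPM in TGFB1 and 46.2 CPM in GFP microglia. The measured means on the same scale were 33.1 CPM in TGFB1 and 37.9 CPM in GFP microglia, so that the scaled level was as large as the level measured. The Mueller marker share rests in large part on Glul, with 199 of the mean 462 CPM of the marker sum in TGFB1 microglia. In GFP microglia it gave 227 of 631 CPM, against 1762 of 21126 CPM in TGFB1 and 1931 of 23135 CPM in GFP non-microglia. The scaled level therefore depends on the markers taken. The part of RNA from other cells in the result was not tested.

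Tyro3 (ENSMUSG00000027298, chromosome 2, 119797733 to 119818104, plus strand), the TAM receptor best known from neurons, was near the counting floor in microglia. It had 6 counts over the 7 TGFB1 libraries, 3 of them at 0, and 20 counts over the 7 GFP libraries. Pooled, this is 0.372 CPM in TGFB1 microglia (95% Poisson interval 0.137 to 0.810) and 1.15 CPM in GFP microglia (0.702 to 1.78), intervals that cover counting error only. It did not pass the filter on low counts. Without the filter its log2 fold change was -1.60 (SE 0.880, edgeR adjusted p = 0.632), and the exact permutation test gave an unadjusted p of 0.0122. Scaling by the Mueller marker share, which rests in large part on Glul, gave 0.753 CPM in TGFB1 and 0.886 CPM in GFP microglia. The measured means were 0.352 CPM in TGFB1 and 1.22 CPM in GFP microglia, and the part of RNA from other cells was again not tested. For Axl, Gas6, Mertk and Pros1 the level scaled in this way was at most 4.06% of the measured level in any microglia library.

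**Figure D3:**
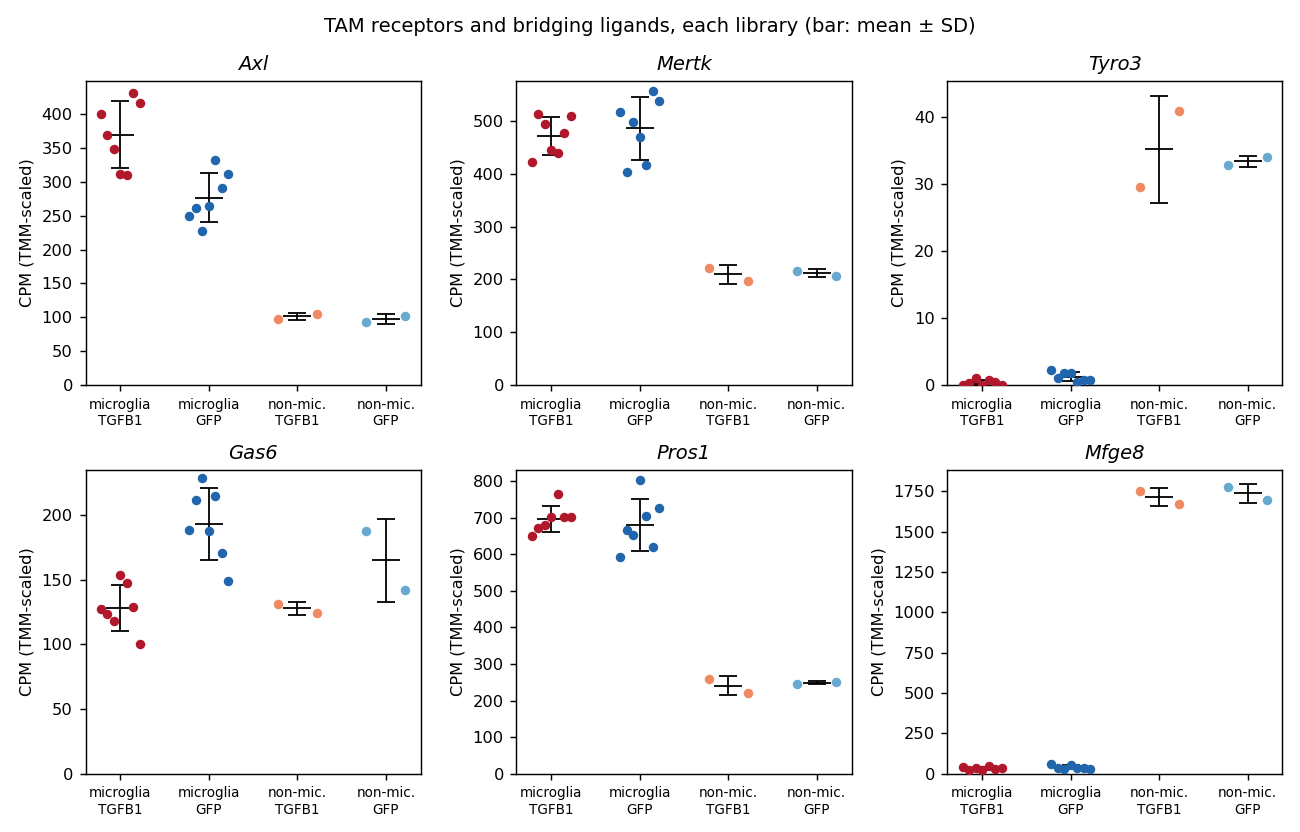
Levels of the 6 members in every library, in CPM with TMM scaling within each fraction, so that heights compare within a fraction. Points are libraries and bars are mean ± SD (7, 7, 2 and 2 libraries from left to right): Axl is higher and Gas6 lower in TGFB1 than in GFP microglia, and Mfge8 and Tyro3 are near 0 in microglia.

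In non-microglia 0 of the 6 members were called between treatments, where 0.390% of 13598 genes tested were called, 0.338% higher and 0.0515% lower. DESeq2 also called 0. At an unadjusted p under 0.05 in edgeR 1 member was lower and 0 were higher, beside 7.63% of all genes in either direction. With 2 libraries in each group the test rests on little replication. The ranges of the groups did not overlap for 36.3% of all genes, and among the members for Gas6.

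Gas6 was measured at 131.6 and 124.5 CPM in the TGFB1 non-microglia libraries, against 187.5 and 142.4 CPM in the GFP non-microglia libraries. Both TGFB1 values lay below both GFP values, the same direction as in microglia, but the log2 fold change of -0.37 (SE 0.131) did not pass (edgeR adjusted p = 0.420). The value turned on single GFP libraries: it was -0.15 without GFP replicate 1 (edgeR adjusted p = 0.882) and -0.55 without GFP replicate 2, when it was called (edgeR adjusted p = 0.0171). Rod and cone markers summed to 1379 CPM in TGFB1 and 2521 CPM in GFP non-microglia, and bipolar markers to 2494 CPM in TGFB1 and 1617 CPM in GFP non-microglia. Whether such differences in cell make-up have a part in these values was not tested.

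Axl stood at 97.8 and 105.4 CPM in TGFB1 non-microglia, against 92.6 and 102.7 CPM in GFP non-microglia. These values interleave, and the log2 fold change was 0.06 (SE 0.139, edgeR adjusted p = 0.978). Mertk was 221.7 and 197.2 CPM in TGFB1, against 216.8 and 206.7 CPM in GFP non-microglia, with a log2 fold change of -0.02 (SE 0.107, edgeR adjusted p = 0.991). The treatments overlapped for both receptors.

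Tyro3 had 29.5 and 40.8 CPM in TGFB1 non-microglia, against 32.8 and 33.9 CPM in GFP non-microglia (log2 fold change 0.08, SE 0.230, edgeR adjusted p = 0.989). Pros1 had 258.9 and 221.8 CPM in TGFB1, against 245.7 and 251.7 CPM in GFP non-microglia (log2 fold change -0.05, SE 0.104, edgeR adjusted p = 0.975). For both genes the GFP pair lay inside the TGFB1 pair. Mfge8, by far the most abundant member in non-microglia, had 1756 and 1675 CPM in TGFB1, against 1779 and 1697 CPM in GFP non-microglia (log2 fold change -0.02, SE 0.0731, edgeR adjusted p = 0.990).

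The treatment effects in microglia and in non-microglia were compared by the difference of the log2 fold changes in a fit of all 18 libraries. 0 of the 6 members were called, where 0.0131% of 15321 genes tested were called. 1 member, Tyro3, had an unadjusted p under 0.05, at rank 450 by p among all 15321 genes, and nothing is read from it. DESeq2 and limma voom also called 0 members. The effect in microglia minus that in non-microglia was 0.37 for Axl (SE 0.197) and -0.21 for Gas6 (SE 0.213). For Mertk it was -0.01 (SE 0.160), for Pros1 0.09 (SE 0.143) and for Mfge8 -0.19 (SE 0.328). For Tyro3, a gene at the counting floor in microglia, it was -1.61 (SE 0.709) and had the unadjusted p under 0.05. The edgeR adjusted p of each member was 0.99995. The Axl and Gas6 changes were therefore not shown to differ between fractions.

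**Figure D4:**
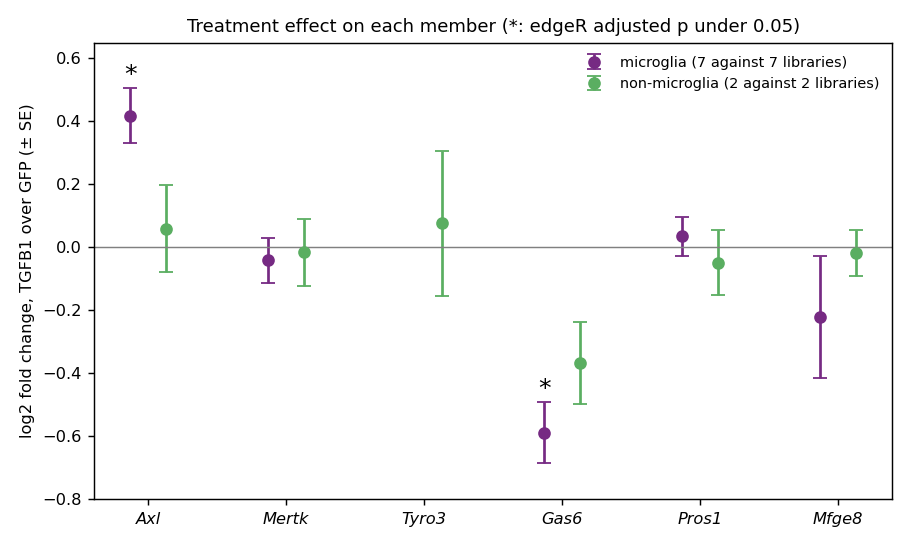
Log2 fold change of TGFB1 over GFP with its standard error for each member, in microglia (purple) and in non-microglia (green). An asterisk marks an edgeR adjusted p under 0.05, which Axl (0.42) and Gas6 (-0.59) reached in microglia and no member reached in non-microglia. Tyro3 was not tested in microglia.

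Between fractions, 4 members were higher and 2 lower in microglia than in non-microglia, in TGFB1 retinas as in GFP retinas. Axl, Mertk, Pros1 and Gas6 were called higher, and Mfge8 and Tyro3 lower. Tyro3 passed the filter on low counts only through non-microglia, so its call is no test of direction. This is a contrast of cell types in which 65.2% of genes were called in TGFB1 retinas, 30.8% higher and 34.4% lower, and 64.2% in GFP retinas, 29.9% higher and 34.2% lower, so that a call by itself says little. In these bulk libraries fewer cells with a transcript and less of it per cell cannot be told apart.

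Pros1 had a log2 fold change of microglia over non-microglia of 2.02 in TGFB1 retinas (SE 0.115, edgeR adjusted p = 1.00e-13) and 1.93 in GFP retinas (SE 0.114, edgeR adjusted p = 2.21e-13). Axl had 2.35 in TGFB1 retinas (SE 0.158, edgeR adjusted p = 2.67e-12) and 1.98 in GFP retinas (SE 0.155, edgeR adjusted p = 4.72e-11). Mertk had 1.66 in TGFB1 retinas (SE 0.125) and 1.67 in GFP retinas (SE 0.125). These changes exceeded the median size over all genes, which was 1.08 in TGFB1 and 1.06 in GFP retinas. Scaling the microglia level of Axl by the share of microglia markers in non-microglia libraries gave at most 0.816% of the Axl measured there. This scaling takes the carried cells to have the profile of the sorted microglia, and their part in the result was not tested.

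Mfge8 showed a difference of -5.21 on the log2 scale in TGFB1 retinas (SE 0.209, edgeR adjusted p = 3.57e-13) and -5.02 in GFP retinas (SE 0.206, edgeR adjusted p = 4.93e-13). Tyro3 showed -5.89 in TGFB1 retinas (SE 0.451) and -4.28 in GFP retinas (SE 0.383), fitted on few microglia counts. It passed the filter on low counts through the non-microglia libraries alone. Its lower direction in microglia was thus set by the filter, and nothing is read from its test. By measured level, Axl and Mertk were higher in microglia and Tyro3 was higher in the other cells. Tyro3 was still the lowest of the TAM receptors per length in both fractions.

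Gas6 was the member closest to even between fractions, and its call depended on the scaling. On the scale shared by all libraries it averaged 137 CPM in TGFB1 microglia and 206 CPM in GFP microglia, against 97.8 CPM in TGFB1 and 127 CPM in GFP non-microglia, and the ranges of TGFB1 microglia and GFP non-microglia overlapped. For each of the other 5 members the ranges of microglia and non-microglia did not overlap, while those of the treatments within a fraction did. How many of all genes separate between fractions in this way was not counted, and nothing is read from it. With TMM factors, which ran from 0.884 to 1.002 in microglia and from 1.29 to 1.32 in non-microglia, the log2 fold change was 0.49 in TGFB1 retinas (SE 0.156, edgeR adjusted p = 0.00817) and 0.70 in GFP retinas (SE 0.155, edgeR adjusted p = 0.000362). Scaled by library totals alone, an alternative added after the data were seen, it was 0.01 in TGFB1 retinas (edgeR adjusted p = 0.967) and 0.19 in GFP retinas (edgeR adjusted p = 0.247). Under it the median of all genes was -0.52 in TGFB1 retinas, against -0.04 with TMM, and -0.56 in GFP retinas, against -0.06 with TMM. Genes called higher and lower numbered 3232 and 7363 in TGFB1 retinas under library totals, against 4723 and 5264 with TMM, and 3119 and 7531 in GFP retinas, against 4585 and 5245 with TMM. The other 5 members kept their direction and call. Without non-microglia TGFB1 replicate 2 the call of Gas6 in TGFB1 retinas also ended (edgeR adjusted p = 0.0619).

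Per kilobase of exon and on a scale shared by all libraries, the members took a different order in each fraction. In TGFB1 microglia the order was Pros1 (183 CPM per kb), Mertk (117), Axl (78.8), Gas6 (54.0), Mfge8 (7.61) and Tyro3 (0.0623). In GFP microglia it was Pros1 (178), Mertk (119.5), Gas6 (80.8), Axl (58.7), Mfge8 (8.81) and Tyro3 (0.215). Axl and Gas6 exchanged places between the treatments, but the ranges of these neighbours overlapped in both, and the other neighbours did not overlap.

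In TGFB1 non-microglia the order per kilobase was Mfge8 (279 CPM per kb), Pros1 (44.9), Gas6 (38.4), Mertk (36.9), Axl (15.4) and Tyro3 (4.33). In GFP non-microglia it was Mfge8 (284), Gas6 (49.7), Pros1 (46.7), Mertk (37.5), Axl (14.9) and Tyro3 (4.13). Gas6 overlapped Mertk in TGFB1 and Pros1 in GFP non-microglia. Tyro3 made up 7.67% of TAM receptor transcripts per length in TGFB1 and 7.31% in GFP non-microglia, against 0.0322% in TGFB1 and 0.123% in GFP microglia.

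**Figure D5:**
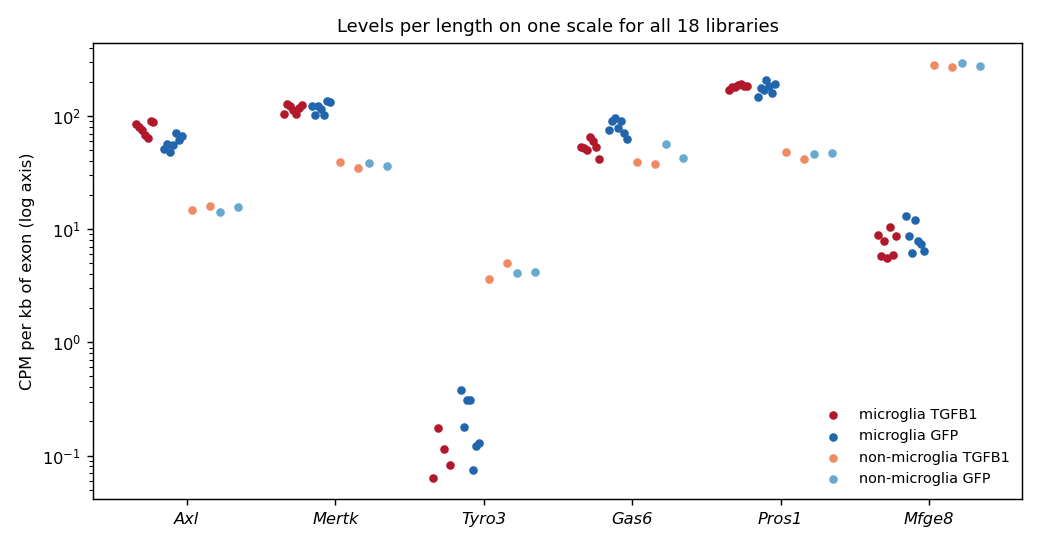
Level of each member per kilobase of exon in every library, on a log axis and a scale shared by all 18 libraries; 3 TGFB1 microglia libraries with 0 Tyro3 counts are not drawn. Pros1 and Mertk lead in microglia and Mfge8 leads in non-microglia, while Gas6 levels of the fractions lie close together.

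Genes that act around the TAM receptors were described as lists, each by how many of its members passed the edgeR test. In microglia 0.310% of the 10970 genes tested were called (0.237% higher and 0.0729% lower), 6.65% had an unadjusted p under 0.05, and the median log2 fold change over all genes was 0.00. In the 5 lists with 0 called in microglia, 0 or 1 member had an unadjusted p under 0.05. Such a p was found for 3 of 14 tested other engulfment receptors and for 5 of 10 other bridging or opsonising factors. Log2 fold changes were above 0 for 7 of these 14 genes and for 6 of these 10. The lists were chosen with earlier results of these data known, so nothing is read from their shares here or below. The proteases Adam10 and Adam17, which shed TAM receptors from the cell surface, belong to a list of shedding factors in which 0 of 6 tested members of 7 were called (median -0.04). Adam10 had a log2 fold change of 0.27 (SE 0.0745, edgeR adjusted p = 0.222) and Adam17 of 0.12 (SE 0.0575, edgeR adjusted p = 0.759). Vitamin K dependent carboxylation, the step that Gas6 and protein S need, had 0 of 4 tested members of 6 called (median -0.06), with Vkorc1l1 at -0.37 (edgeR adjusted p = 0.877) and Vkorc1 at -0.10 (edgeR adjusted p = 0.913). For phosphatidylserine exposure 0 of 6 tested members of 9 were called (median -0.01), among them the scramblase gene Xkr8 at -0.28 (edgeR adjusted p = 0.869).

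Of the other engulfment receptors, 1 of 14 tested members of 19 was called (median 0.01). This was Cd300lb, an activating receptor of the CD300 family of lipid-binding receptors, with a log2 fold change of 1.26 (SE 0.265, edgeR adjusted p = 0.0256). Its level was low, with a mean of 12.1 ± 5.24 CPM in TGFB1 microglia and 5.03 ± 1.27 CPM in GFP microglia (SD, n = 7 each). Of the other bridging or opsonising factors, 1 of 10 tested members of 14 was called (median 0.12), the galectin gene Lgals3 with a log2 fold change of 1.07 (SE 0.215, edgeR adjusted p = 0.0256). Lgals3, whose product is also reported as a Mertk ligand, had a mean of 31.2 ± 9.96 CPM in TGFB1 microglia and 14.6 ± 4.75 CPM in GFP microglia (SD, n = 7 each).

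Engulfment signalling and cytoskeleton had 0 of 15 tested members of 18 called (median 0.07), with the myosin gene Myo7a at 0.26 (edgeR adjusted p = 0.553) and the adaptor gene Crkl at 0.19 (edgeR adjusted p = 0.772). The genes by which TAM signalling restrains inflammation, which include the interferon receptor that Axl engages, had 0 of 6 tested members of 11 called (median 0.06). Of these Ifnar1 had a log2 fold change of 0.21 (edgeR adjusted p = 0.411). In non-microglia, where 0.390% of all genes were called, 0 members of any of the 7 lists were called, the list medians lay between -0.12 and 0.05, and 0 to 2 members of a list had an unadjusted p under 0.05, beside 7.63% of all genes. The smallest edgeR adjusted p of each list there ran from 0.449 for the complement gene C3 (log2 fold change -1.39) to 0.857 for the carboxylase gene Ggcx (log2 fold change 0.23). The engulfment adaptor gene Gulp1 had a log2 fold change of -0.44 (edgeR adjusted p = 0.611) and the receptor gene Scarb1 of -0.23 (edgeR adjusted p = 0.626).

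Between fractions the shedding proteases were, like Axl and Mertk, higher in microglia. Adam10 had a log2 fold change of 2.96 in TGFB1 retinas and 2.91 in GFP retinas, and Adam17 of 2.77 in TGFB1 and 2.65 in GFP retinas. The protease inhibitor gene Timp3 was lower in microglia, at -6.44 in TGFB1 and -5.91 in GFP retinas (edgeR adjusted p at most 1.79e-07 for these 3 genes). The shedding list had 3 members higher and 4 lower of 7 in both treatments. The other engulfment receptors had 11 higher and 4 lower of 15 tested in TGFB1 retinas, and 11 higher and 3 lower in GFP retinas. Of all genes, 30.8% were higher and 34.4% lower in TGFB1 retinas, and 29.9% and 34.2% in GFP retinas. Since the lists were chosen with earlier results of these data known, nothing is read from these counts.

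Within microglia, the genes most like each member were sought as a description over the 14 libraries, by Pearson r of log2(CPM + 1) after the treatment means were removed, among 9902 protein-coding genes and with no p. The points share the differences in depth and purity between libraries. Axl was most like Itgax (r = 0.89), Dhcr7 (0.89) and Ctsd (0.88). Gas6 was most like Casp4 (0.88), Map4k4 (0.84) and Nop53 (0.82), and Mertk was most like Ndufaf3 (0.87), Fam53b (0.86) and Gpd1 (0.81). Pros1 was most like Asah1 (0.91), Pdia3 (0.91) and Sat1 (0.90), and Mfge8 was most like Cp (0.91), Zdhhc17 (0.91) and Eno1 (0.90). Without the 2 libraries farthest from the median of the member, these r lay between 0.68 for Nop53 with Gas6 and 0.92 for Itgax with Axl. The genes were picked for high r in the same libraries, so these values are no separate check. How high the best r of unrelated genes would be was not computed.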

How the data were processed

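The authors deposited raw counts per Ensembl gene, whole numbers with no normalization, in a table with a column per library. Per the submitters' processing notes, STAR, featureCounts and DESeq2 were used with GRCm38.p6. Their versions, the strand setting and the annotation release are not given in the labels. Of 54532 genes, 54409 were matched to GENCODE M21 by identifier.

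Groups came from the sample titles. The members and lists were chosen with earlier results of these data known. Comparisons used edgeR 4.0.16 in R 4.3.3 (TMM factors, filterByExpr, quasi-likelihood F test with robust dispersion) within each fraction, or in a fit of all 18 libraries for the fraction contrasts and the difference of effects. The standard error is the size of the log2 fold change divided by the square root of F. CPM are TMM-scaled counts per 1e+06; levels per kilobase divide CPM from the fit of all libraries by merged exon length, and ratios use a scale shared by all libraries. All 6 members are named in every comparison; from each list the called members, or up to 2 of smallest p, are named. The values of some genes that this rule names are not reported here. Single-member permutation tests used log2(CPM + 1), were planned with an adjustment over the 6 members and are given unadjusted. Alternatives were RLE factors, no filter on low counts, DESeq2 1.42.0, voom with quality weights of limma 3.58.1, a replicate block, a Mueller marker covariate, subsets of libraries and leaving out each library. The division of replicates into 2 to 4 and 5 to 8 is known from earlier results of these data, not from the labels. Added after the data were seen were scaling by library totals, leaving out the 3 libraries highest in Mueller markers and a treatment by Xist term. P-values cover only the variation among these libraries, part of which may be technical. Without molecular identifiers, intervals and floors cover counting error only. No libraries agreed within sampling noise. The models were tested on simulated data. Promoter sequences are from RefSeq, GRCm38.p6, in which all 6 members matched.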

Additional observations from a re-analysis of the deposited data

How the results depend on the processing

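Gas6 in microglia stayed below 0 in every fit and lost its call in replicates 5 to 8 alone and in the libraries with Xist alone. Axl in microglia stayed above 0 in every fit; besides the 10 single libraries, its call ended under voom (0.41, adjusted p = 0.0680), in the fit of all 18 libraries (0.42, adjusted p = 0.0611), with the Mueller marker covariate, in replicates 5 to 8, in the libraries with Y counts, and without the 3 libraries highest in Mueller markers (GFP replicates 2 and 5 and TGFB1 replicate 6; 0.41, adjusted p = 0.0582), where Gas6 was -0.64 (adjusted p = 0.0114). DESeq2 called both (adjusted p = 0.00234 for Axl and 2.70e-05 for Gas6). The cause of these losses was not tested. The subsets also held fewer libraries, and the part of that was not tested either. Members called higher in microglia were 0 in each of these 6 settings, and members called lower were 0 in replicates 5 to 8 and in the libraries with Xist.

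Over all genes in microglia, 26 were higher and 8 lower. Counts lower were 25 with no filter on low counts, 13 with DESeq2 and 18 without the 3 libraries highest in Mueller markers. Higher and lower counts were 11 and 4 in the fit of all 18 libraries, 3 and 1 in replicates 2 to 4, 4 and 0 in replicates 5 to 8, 17 and 2 in the libraries with Xist, and 1 and 2 in those with Y counts; 11 were higher with the Mueller marker covariate. Leaving out 1 library gave 10 to 26 higher, 5 to 14 lower and 0 to 1 members higher. In non-microglia 46 were higher and 7 lower; these were 86 and 16 with no filter, 29 and 4 with DESeq2, 4 and 0 in the fit of all 18 libraries, and 22 to 87 and 6 to 33 without 1 library, with 0 to 1 members lower. For the difference of effects, 0 were higher and 2 lower; these were 3 and 9 with no filter, 1 higher with DESeq2 and with voom, 1 lower with library totals, and 0 to 1 and 1 to 2 without 1 library.

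The single-member permutation results kept their direction and their side of 0.05 with another pseudocount, with RLE factors and without each library. Direction turned only for members that passed no test in the comparison. In microglia Mfge8 was 0.053 with the Mueller marker covariate, Mertk was 0.016 in replicates 2 to 4 and 0.082 in the libraries with Y counts, where Pros1 was -0.0040. The difference of effects for Mertk was 0.011 with voom and 0.010 with library totals. Without 1 library it ran from -0.090 to 0.070 for Mertk and from -0.0098 to 0.20 for Pros1, and the effects in non-microglia ran from -0.016 to 0.14 for Axl, -0.10 to 0.068 for Mertk, -0.054 to 0.016 for Mfge8, -0.16 to 0.060 for Pros1 and -0.18 to 0.29 for Tyro3.

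The replicate numbers were checked as pairs. Same-numbered microglia libraries correlated at -0.124 to 0.216 in their deviations from the group means, with 5 of 7 pairs over 0.1, and only replicates 2 and 7 correlated best with their own number. Both libraries of each number had the same Xist detection in 7 of 7 pairs. The mean r with libraries of other numbers ran from -0.033 to -0.0069 in microglia. The labels name no shared animal or batch, and the reported values come from the fit without the block. These checks do not settle whether same-numbered libraries were paired. If they were, the reported tests, the permutation tests among them, ignore that pairing. With a replicate block, 41 genes were higher and 19 lower in microglia, 89 and 20 in non-microglia, and 1 lower for the difference of effects; Axl was 0.42 (adjusted p = 0.0109) and Gas6 -0.59 (adjusted p = 0.000307) in microglia. Depth limits Tyro3 in microglia, at 0 to 4 counts a library, and 2 libraries a group limit non-microglia.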

Other observations

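Whether Xist exceeded the Y chromosome genes in a library was read from the counts and is not a label. Axl ran from 401 to 432 CPM in the 3 TGFB1 microglia libraries with Xist counts, above the 310 to 369 CPM of the 4 TGFB1 libraries with Y counts. In GFP microglia it ran from 250 to 311 CPM in the 3 libraries with Xist counts and from 228 to 332 CPM in the 4 with Y counts, which overlap. Mertk separated in GFP microglia (516 to 558 CPM with Xist counts, 403 to 499 CPM with Y counts) but overlapped in TGFB1 microglia. How many of all genes separate in this way was not counted, and nothing is read from it. The treatment effect in the libraries with Xist minus that in the libraries with Y counts was 0.24 for Axl (SE 0.145, edgeR adjusted p = 0.939), 0.13 for Gas6 (SE 0.160, edgeR adjusted p = 0.989) and -0.28 for Mertk (SE 0.120, edgeR adjusted p = 0.880). In that test 0 of 10970 genes were called, so no member was shown to respond differently in these libraries. An unadjusted p under 0.05 was found for 578 of these 10970 genes and, of the 5 members tested, only for Mertk, and nothing is read from it. This comparison was chosen after the data were seen.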
